A study of Rattus norvegicus with 12 samples.

Results

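The small leucine-rich proteoglycans examined here are Dcn, Bgn, Aspn, Fmod, Lum, Prelp, Kera, Omd and Ogn, chosen by name. They are 9 of 33801 genes in the deposited table, and 8 were found by symbol. The table carries Ogn under the placeholder NEWGENE_1308171, and its row was taken by the description osteoglycin. RNA came from peri-implant bone of wild-type rats, collected within a diameter of 4 mm around mini-implants at the maxillary first molar site. Implants were made of the alloy Zr58Cu25Al14Nb3, here the Nb3 alloy, or of titanium, cpTi. Within each material, 3 libraries came from implants loaded cyclically over 2 weeks and 3 from static, non-loaded ones, 12 in all. The sources used here do not say whether the replicates are separate animals, so p-values measure only the spread between these samples, which may be technical.

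These proteoglycans are short core proteins built from leucine-rich repeats, many of them carrying sulfated sugar chains. They sit on collagen fibrils, where they set fibril diameter and spacing, and several bind growth factors such as TGF-beta. By convention Dcn (decorin), Bgn (biglycan) and Aspn (asporin) form class I. Fmod (fibromodulin), Lum (lumican), Prelp, Kera (keratocan) and Omd (osteomodulin) form class II, and Ogn (osteoglycin) belongs to class III. In mice, loss of Bgn lowers bone mass. Loss of Lum or Fmod disturbs collagen fibrils of mouse tendon.

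Most of the genes lie in 3 clusters, given here by the coordinates of the deposited table, whose genome build is not given in the sources used here. Dcn (ENSRNOG00000004554, chromosome 7, 32281252 to 32321270), Lum (ENSRNOG00000004610, chromosome 7, 32358614 to 32365793) and Kera (ENSRNOG00000004635, chromosome 7, 32397382 to 32404837) lie on the plus strand within 124 kb. Ogn (ENSRNOG00000029792, chromosome 17, 15032069 to 15052739), Omd (ENSRNOG00000039560, chromosome 17, 15060217 to 15068441) and Aspn (ENSRNOG00000015410, chromosome 17, 15080639 to 15104041) lie on the minus strand within 72.0 kb. Prelp (ENSRNOG00000003120, chromosome 13, 45370533 to 45380270, minus strand) and Fmod (ENSRNOG00000003183, chromosome 13, 45493517 to 45504133, plus strand) lie within 134 kb. Bgn stands alone (ENSRNOG00000055962, chromosome X, 151197273 to 151209461, plus strand).

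Upstream sequence was at hand for 6 of the 9 genes, and 3 are shown: Fmod, whose levels differed most with loading beside the Nb3 alloy, and Lum and Kera, chromosome 7 neighbours of which one was abundant and the other nearly silent. Each is the 250 bases before the annotated start in RefSeq (build GRCr8), 5′ to 3′ on the gene's strand: chr13:48045317-48045566 (plus strand) for Fmod, chr7:34245456-34245705 (plus strand) for Lum and chr7:34283850-34284099 (plus strand) for Kera. Capitals mark CANNTG, the E-box read by basic helix-loop-helix factors such as scleraxis.
Fmod: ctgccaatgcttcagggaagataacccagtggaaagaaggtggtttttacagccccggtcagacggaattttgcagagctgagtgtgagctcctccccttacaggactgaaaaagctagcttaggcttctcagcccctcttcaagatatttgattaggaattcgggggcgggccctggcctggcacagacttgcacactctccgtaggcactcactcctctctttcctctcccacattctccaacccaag
Lum: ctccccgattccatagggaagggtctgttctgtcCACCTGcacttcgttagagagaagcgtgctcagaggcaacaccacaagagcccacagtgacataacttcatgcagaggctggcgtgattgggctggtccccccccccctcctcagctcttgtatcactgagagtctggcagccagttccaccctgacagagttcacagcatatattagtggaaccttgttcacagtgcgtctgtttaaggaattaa
Kera: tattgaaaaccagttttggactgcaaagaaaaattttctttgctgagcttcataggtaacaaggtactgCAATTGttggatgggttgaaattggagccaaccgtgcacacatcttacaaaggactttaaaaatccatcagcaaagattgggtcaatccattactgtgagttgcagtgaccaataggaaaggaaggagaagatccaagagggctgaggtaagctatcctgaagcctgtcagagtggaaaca
Counted on both strands, CANNTG occurred at 0 positions in Fmod, 1 in Lum and 1 in Kera, while 65.5% of 33469 RefSeq windows of this length held it. CAGAC, a short element bound by SMAD factors, occurred at 2 positions in Fmod, 3 in Lum and 0 in Kera, against 42.9% of all windows with at least 1. TGANTCA, the AP-1 element, was in none of the 3 windows and in 6.34% of all windows. These matches are descriptions of the letters only.

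The libraries held 12.9 to 22.3 M reads on genes, recovered from the steps in the FPKM values (fragments per kilobase of gene length, scaled by a factor for each library). That factor was not proportional to the reads on genes. For Kera, 3 reads are worth 0.0922 FPKM in loaded Nb3-alloy replicate 1 (16.8 M reads) and 0.0842 FPKM in replicate 2 (22.3 M reads). The 3 loaded Nb3-alloy libraries stood apart. Their log2 values correlated with those of the other 9 at 0.731 to 0.866 over the 15268 genes tested, while the other 9 reached 0.932 to 0.969 among themselves. Mitochondrial genes took 11.3% to 24.3% of their reads, against 4.31% to 6.86% elsewhere. Osteoblast markers (Bglap, Sp7, Alpl, Ibsp, Runx2 and Col1a1) were present in every library, summing to 2850 FPKM or more. Neutrophil markers summed to 8.06 to 50.6 FPKM in loaded Nb3 alloy and 3004 to 6844 FPKM in non-loaded Nb3 alloy, with 6 of 6 lower. Fibroblast and mesenchymal markers summed to 605 to 900 FPKM in loaded Nb3 alloy and 155 to 234 FPKM in non-loaded Nb3 alloy, with 10 of 11 higher. Smooth muscle and pericyte markers summed to 574 to 889.97 FPKM in loaded and 75.0 to 119 FPKM in non-loaded Nb3 alloy, with 5 of 5 higher. Schwann cell markers summed to 211 to 760.5 FPKM in loaded and 56.7 to 73.8 FPKM in non-loaded Nb3 alloy, with 5 of 5 higher. Endothelial markers summed to 179 to 339.7 FPKM in loaded and 56.4 to 92.2 FPKM in non-loaded Nb3 alloy, with 4 of 5 higher. In bulk tissue, fewer cells of a type and less RNA per cell cannot be told apart. The part of these shifts in cell markers in the results that follow was not tested.

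Beside the Nb3 alloy, all 8 proteoglycan genes that could be tested were higher after loading, from Omd at 2.74-fold to Fmod at 25.8-fold in mean FPKM. Kera was too low to test. Testing needed 1 FPKM or more in at least 3 libraries. A call means that limma on log2(FPKM + 1) gave an adjusted p under 0.05 after Benjamini-Hochberg correction over all genes tested. In this comparison 45.8% of all tested genes were called in either direction and 20.7% were called higher, so a call alone is common. Scaling by total reads moved the median of all tested genes to -0.17 and the split to 2266 higher and 4670 lower genes, against 3156 and 3840. The members had a median log2 difference of 2.42, and all tested genes had one of -0.02. In 7 of the 9 genes every loaded library lay above every non-loaded one, as in 22.9% of all tested genes.

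Decorin (Dcn), which binds collagen and TGF-beta, stood at 429, 599 and 413 FPKM in loaded Nb3-alloy replicates 1, 2 and 3, against 103, 102 and 65.1 FPKM in the non-loaded ones. Every loaded library lay far above every non-loaded one. Dcn rose by 2.41 on the log2 scale (SE 0.31, limma adjusted p = 0.000123). Biglycan (Bgn), its closest relative and the most abundant member in all 4 groups by mean FPKM, stood at 570, 578 and 546 FPKM in loaded Nb3 alloy, against 319, 138 and 121 FPKM in non-loaded Nb3 alloy. The loaded libraries hardly differed (SD 16.6 FPKM), while non-loaded replicate 1 was well above the other 2. Bgn rose by 1.69 (SE 0.31, limma adjusted p = 0.00129).

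Asporin (Aspn), which binds collagen and calcium and is known from the periodontal ligament, was the scarcest tested member by mean FPKM in 3 of the 4 groups. It stood at 11.1, 15.3 and 15.01 FPKM in loaded Nb3 alloy (349 to 525 reads), against 2.83, 0.831 and 0.936 FPKM in non-loaded Nb3 alloy (25 to 83 reads). The groups did not overlap, and Aspn rose by 2.62 (SE 0.83, limma adjusted p = 0.0234). Its call was lost without loaded replicate 2 (2.55) or 3 (2.56) and without non-loaded replicate 2 (2.43) or 3 (2.47). In limma it was also lost with no filter on low values (adjusted p = 0.0923) and with no moderation of the spread (adjusted p = 0.0547). Its log2 difference was 3.28 with a pseudocount of 0.1 and 3.37 with limma-voom. The call was held in 18 of 24 alternatives, whose adjusted p ran from 0.000373 to 0.0923.

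**Figure D1:**
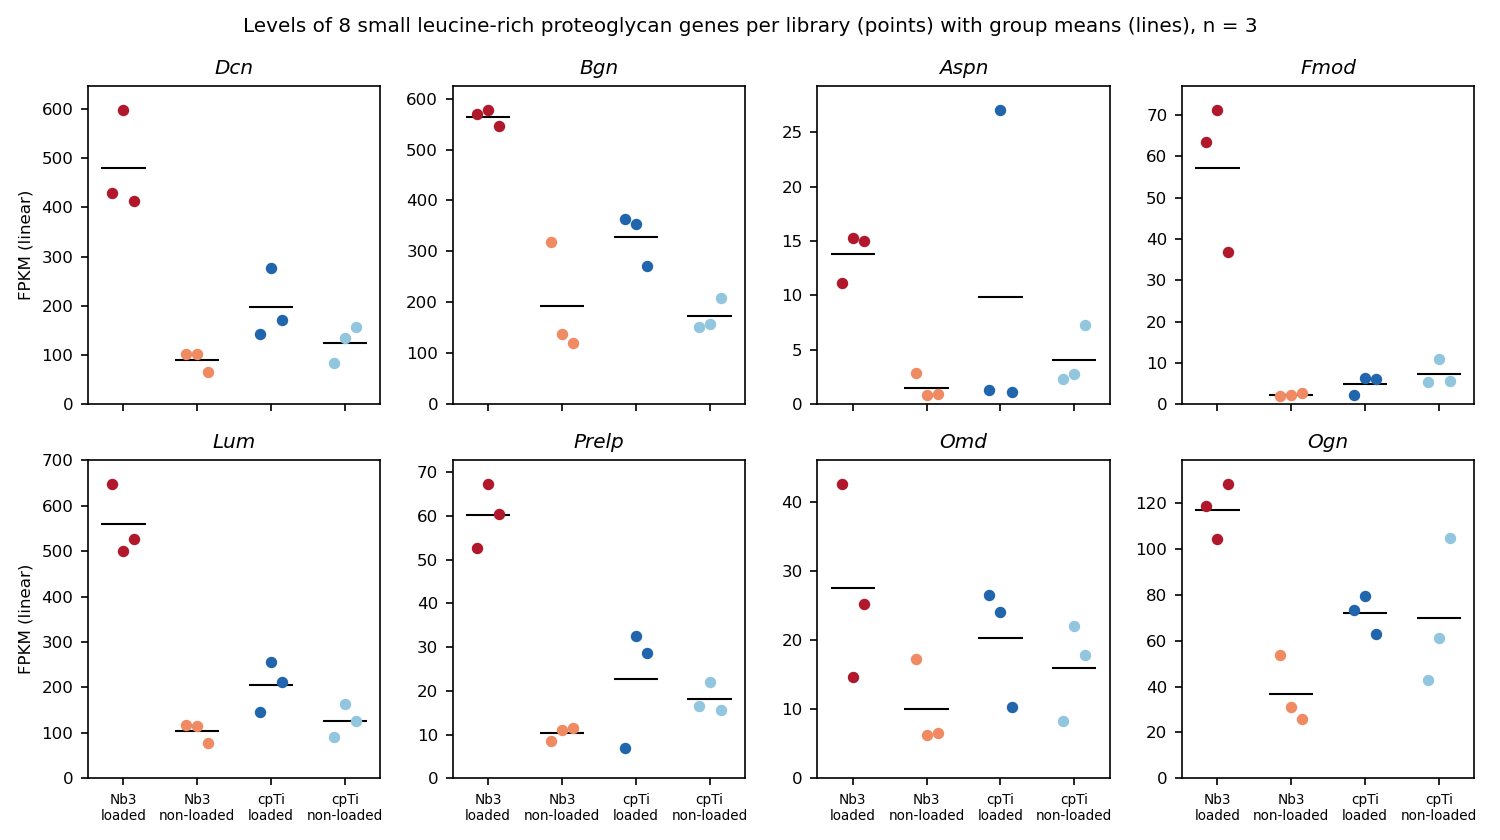
FPKM of the 8 tested proteoglycan genes in each library (points, linear axes from 0), with lines at the means of the 3 libraries of a group. Each panel runs from the Nb3 alloy, loaded then static, to cpTi in the same order. The loaded Nb3-alloy points lie above all others for Dcn, Bgn, Fmod, Lum and Prelp, while 1 loaded cpTi library has the highest Aspn value, at 27.1 FPKM.

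Fibromodulin (Fmod), which binds type I collagen and is rich in tendon and ligament, moved most. It stood at 63.4, 71.3 and 36.9 FPKM in loaded Nb3-alloy replicates 1, 2 and 3, against 1.87, 2.15 and 2.64 FPKM in the non-loaded ones. The loaded libraries were all high and the non-loaded ones all low. Fmod rose by 4.13 (SE 0.36, limma adjusted p = 9.19e-06), and the estimate stayed between 3.95 and 4.64 over 24 alternatives, with a call in all 24.

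Lumican (Lum), the fibromodulin relative whose loss thickens collagen fibrils in mice, stood at 648, 500 and 527 FPKM in loaded Nb3 alloy, against 118, 116 and 78.5 FPKM in non-loaded Nb3 alloy. It rose by 2.43 (SE 0.27, limma adjusted p = 4.76e-05). Prelp, which links collagen to basement membranes through heparan sulfate, stood at 52.5, 67.3 and 60.4 FPKM, against 8.46, 11.0 and 11.5 FPKM in the same order of groups. It rose by 2.44 (SE 0.43, limma adjusted p = 0.000944). Neither gene's groups overlapped. Dcn, Lum and Prelp thus had nearly equal log2 differences although their levels differed.

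Osteomodulin (Omd), a keratan sulfate proteoglycan made by osteoblasts, was the one tested member whose groups overlapped. It stood at 42.6, 14.7 and 25.3 FPKM in loaded Nb3-alloy replicates 1, 2 and 3, against 17.3, 6.27 and 6.56 FPKM in the non-loaded ones. Loaded replicate 2 lay below non-loaded replicate 1. That library had an osteoblast marker sum of 5912 FPKM, against 14308 and 16259 FPKM in loaded replicates 1 and 3, and a skeletal muscle marker sum of 707 FPKM, against 156 and 6.07 FPKM. At least 4714 FPKM of its osteoblast sum came from Col1a1. Its osteocyte (635 FPKM), cartilage (40.2 FPKM) and ligament and tendon (164 FPKM) sums were also the lowest of the group. Its oral epithelium sum (70.3 FPKM) was the highest. The part of these in the Omd value was not tested. Omd rose by 1.39 (SE 0.51, limma adjusted p = 0.0451), at the edge of the threshold. The call was held in 13 of 24 alternatives. It was lost without loaded Nb3-alloy replicate 1 (1.02) or 3 (1.38), without non-loaded Nb3-alloy replicate 2 (1.15) or 3 (1.18), without loaded cpTi replicate 2 and without non-loaded cpTi replicate 3 (1.39 each). Total-read scaling (1.22), a replicate block (limma adjusted p = 0.0556), no filter, no moderation and a fit of these groups alone ended it too. Over the 24 alternatives the limma adjusted p ran from 0.0179 to 0.159.

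Osteoglycin (Ogn), also called mimecan, stood at 119, 104 and 129 FPKM in loaded Nb3 alloy, against 53.9, 31.2 and 25.7 FPKM in non-loaded Nb3 alloy. The groups did not overlap, and Ogn rose by 1.71 (SE 0.32, limma adjusted p = 0.00128). The gene Cenpp runs along the opposite strand across Ogn, Omd and Aspn (chromosome 17, 15014058 to 15189304). The strand setting of the counting is not given, so reads from overlapping exons could not be assigned with certainty. Cenpp itself fell, averaging 1.05 ± 0.345 FPKM with loading beside the Nb3 alloy and 4.96 ± 2.59 FPKM without it (SD, n = 3 each; -1.44, SE 0.31, limma adjusted p = 0.00326).

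Keratocan (Kera), the keratan sulfate proteoglycan of the cornea, was nearly silent. It had 3 reads in loaded Nb3-alloy replicate 1, or 0.0922 FPKM, and 0 reads in the other 11 libraries. A count of 0 allows up to 3 reads, which is 0.0842 to 0.113 FPKM in those libraries, counting error only. Kera lies between Lum, at 558 ± 78.9 FPKM in loaded Nb3 alloy (SD, n = 3), and Epyc, a cartilage proteoglycan at 0.324 ± 0.291 FPKM in the same group. The chromosome 7 cluster thus held 2 abundant genes, Dcn and Lum, and 2 that did not reach the level for testing.

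Beside cpTi, none of the 8 tested proteoglycan genes was called after loading. The limma count was 0 of 8, with 2 (Bgn and Lum) at an unadjusted p under 0.05, and limma-voom also called 0. In this comparison 0.00655% of all tested genes were called, and 0.0% were called higher. The 8 genes had a median log2 difference of 0.23, against -0.03 for all tested genes, and 7 of 8 lay above 0.

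Bgn came closest, at 364, 353 and 271 FPKM in loaded cpTi replicates 1, 2 and 3, against 152, 158 and 209 FPKM in the non-loaded ones. It was the one member whose groups did not overlap here, as in 7.0% of all tested genes with the loaded group above. Its log2 difference was 0.93 (SE 0.31, limma adjusted p = 0.666). Lum stood at 147, 255 and 211 FPKM in loaded cpTi, against 90.2, 164 and 127 FPKM in non-loaded cpTi (0.69, SE 0.27, limma adjusted p = 0.673). Dcn stood at 142, 277 and 172 FPKM, against 84.1, 135 and 157 FPKM (0.64, SE 0.31, limma adjusted p = 0.738). For both, loaded replicate 1 lay inside the range of non-loaded cpTi.

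Fmod pointed the other way beside cpTi, at 2.16, 6.40 and 6.11 FPKM in loaded samples, against 5.31, 10.9 and 5.62 FPKM in non-loaded ones. The groups overlapped and the log2 difference of -0.53 (SE 0.36, limma adjusted p = 0.805) did not pass. Prelp stood at 7.01, 32.6 and 28.7 FPKM in loaded cpTi, against 16.5, 22.002 and 15.7 FPKM in non-loaded cpTi (0.09, SE 0.43, limma adjusted p = 0.975). Loaded replicate 1 was low for both genes and the other 2 loaded replicates were higher. Omd stood at 26.6, 24.0 and 10.3 FPKM, against 8.28, 21.96 and 17.8 FPKM (0.32, limma adjusted p = 0.929). Ogn stood at 73.6, 79.5 and 63.1 FPKM, against 42.9, 61.3 and 105 FPKM (0.14, limma adjusted p = 0.953). In Omd and Ogn the spread within each group was as wide as any difference between them.

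Aspn in loaded cpTi depended on 1 library. It stood at 1.28, 27.1 and 1.13 FPKM in loaded replicates 1, 2 and 3, resting on 34, 832 and 36 reads, against 2.30, 2.74 and 7.26 FPKM in non-loaded cpTi. Replicate 2 held the highest Aspn value of all 12 libraries and the other 2 were below every non-loaded cpTi library. The log2 difference was 0.14 (SE 0.83, limma adjusted p = 0.980) and turned to -1.08 without that library. Loaded cpTi replicate 2 was also the highest of its group for 6 of the 8 tested members. Its ligament and tendon markers (Tnmd, Scx, Mkx, Thbs4, Comp and Tnc) summed to 427 FPKM, against 136 and 191 FPKM in loaded replicates 1 and 3, and their part in the Aspn value was not tested.

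The loading effect itself differed between the materials for 5 of 8 genes, tested as an interaction of loading and material. In this comparison 20.2% of all tested genes were called in either direction and 8.42% were called higher. The effect in Nb3 alloy exceeded that in cpTi by 4.66 for Fmod (SE 0.51, limma adjusted p = 0.000179), by 1.74 for Lum (SE 0.38, adjusted p = 0.00985) and by 1.78 for Dcn (SE 0.44, adjusted p = 0.0167). Fmod and Lum held this call in 23 of 23 alternatives and Dcn in 22, the exception being no filter on low values (limma adjusted p = 0.0741). For Prelp the difference was 2.35 (SE 0.61, limma adjusted p = 0.0205), and 1.69 without loaded cpTi replicate 1. Its call was lost without non-loaded cpTi replicate 2 (2.21), with no filter and with no moderation, and the limma adjusted p ran from 0.00233 to 0.0967 over 23 alternatives.

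For Ogn the interaction was 1.57 (SE 0.45, limma adjusted p = 0.0307), and the call was held in 10 of 23 alternatives, with adjusted p from 0.0118 to 0.124. Nb3 alloy minus cpTi was 0.70 for Ogn under loading and -0.87 without loading, neither called, and both enter this interaction. The interaction call was lost without loaded Nb3-alloy replicate 1 or 3, non-loaded Nb3-alloy replicate 2 or 3, loaded cpTi replicate 1 or 3, and non-loaded cpTi replicate 2 or 3 (1.23 to 1.61). It was also lost with a replicate block (limma adjusted p = 0.0576), under total-read scaling, quantile normalization and no filter, and with no moderation. Bgn (0.76, limma adjusted p = 0.256), Omd (1.06, adjusted p = 0.333) and Aspn (2.48, adjusted p = 0.161) were not called. Bgn was called without non-loaded Nb3-alloy replicate 1 (1.19) and Aspn without loaded cpTi replicate 2 (3.71). A difference between the loading effects in these 3 genes was therefore not shown with all 12 libraries.

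**Figure D2:**
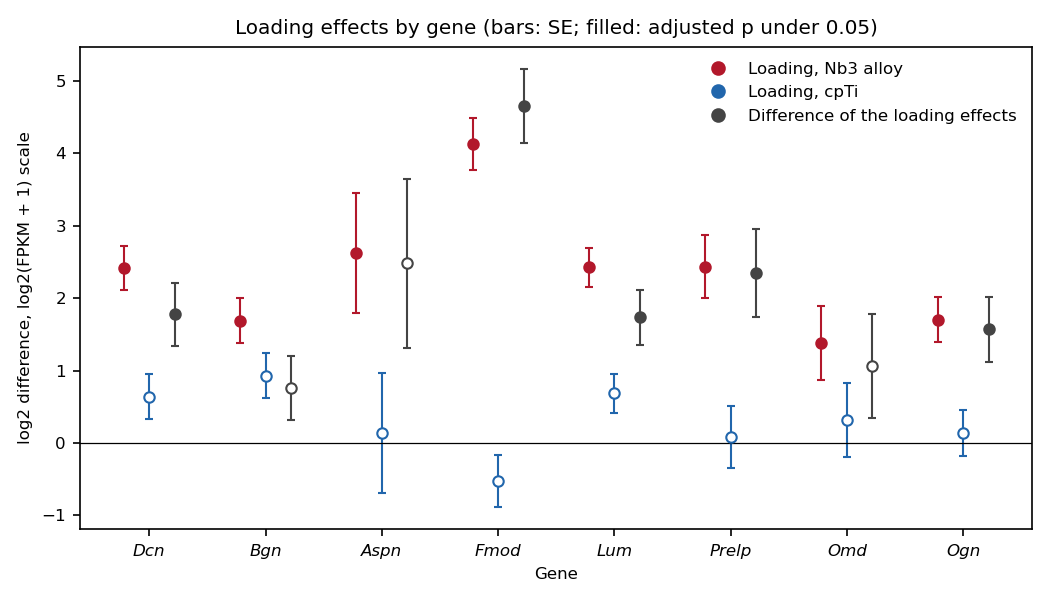
Log2 difference with its SE for each tested gene, for loading beside Nb3 alloy (red), loading beside cpTi (blue) and the difference of both effects (grey), with filled points at an adjusted p under 0.05. The red points are all filled, no blue point is filled, and the grey points of Dcn, Fmod, Lum, Prelp and Ogn are filled.

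Between the materials under load, 4 of 8 genes were higher beside the Nb3 alloy, while 33.6% of all tested genes were called in either direction and 14.7% were called higher. These values use the same loaded Nb3-alloy libraries as the loading comparison, so they are no independent support for it. Fmod averaged 57.2 ± 18.0 FPKM in loaded Nb3 alloy and 4.89 ± 2.37 FPKM in loaded cpTi (SD, n = 3 each), a log2 difference of 3.35 (limma adjusted p = 6.43e-05). Lum averaged 558 ± 78.9 and 204 ± 54.5 FPKM in these groups (1.47, limma adjusted p = 0.00203), and Dcn 480 ± 103 and 197 ± 70.6 FPKM (1.32, adjusted p = 0.00775). Prelp averaged 60.1 ± 7.41 FPKM in loaded Nb3 alloy and 22.8 ± 13.8 FPKM in loaded cpTi (1.60, limma adjusted p = 0.0151). Without loaded cpTi replicate 1, the low one of its group, the difference was 0.94 (limma adjusted p = 0.00607). The call was lost in limma with no filter (adjusted p = 0.0706) and in a fit of these groups alone (adjusted p = 0.0695).

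Bgn averaged 565 ± 16.6 FPKM in loaded Nb3 alloy and 329 ± 50.9 FPKM in loaded cpTi, without overlap, and was not called (0.79, limma adjusted p = 0.0749). In limma it was called in the fit of these groups alone (adjusted p = 0.0231) and without non-loaded Nb3-alloy replicate 1 (adjusted p = 0.00626). Ogn averaged 117 ± 12.1 and 72.0 ± 8.30 FPKM, also without overlap (0.70, limma adjusted p = 0.112), and was called in the fit of these groups alone (adjusted p = 0.0203). In 6 of the 9 genes every loaded Nb3-alloy library lay above every loaded cpTi library, as in 21.0% of all tested genes. Omd (0.40, limma adjusted p = 0.584) and Aspn (1.51, adjusted p = 0.183) overlapped, and Aspn was called without loaded cpTi replicate 2 (2.74).

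Between the materials at rest, limma called 0 of 8 genes and 0 of all 15268. At an unadjusted p under 0.05 there were 2 members, Fmod and Ogn, and limma-voom called 0 members. All tested genes had a median difference of 0 and the members one of -0.71, with 7 of 8 below 0. Fmod averaged 2.22 ± 0.388 FPKM in non-loaded Nb3 alloy and 7.27 ± 3.14 FPKM in non-loaded cpTi (-1.31, limma adjusted p = 1). Prelp averaged 10.3 ± 1.61 FPKM in non-loaded Nb3 alloy and 18.0 ± 3.45 FPKM in non-loaded cpTi (-0.75, limma adjusted p = 1). These 2 genes, neighbours on chromosome 13, were the members whose groups did not overlap, with non-loaded Nb3 alloy below, as in 4.41% of all tested genes.

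The top of the order of levels was the same in all groups, while Fmod changed its place. By mean FPKM per gene length, Bgn, Lum, Dcn and Ogn held the top of the order, in that sequence, in all 4 groups. Single libraries did not all keep this sequence. In loaded cpTi replicate 2, for example, Dcn (277 FPKM) exceeded Lum (255 FPKM). In loaded Nb3 alloy Bgn (565 ± 16.6), Lum (558 ± 78.9) and Dcn (480 ± 103) did not differ beyond their SD. Prelp (60.1 ± 7.41) and Fmod (57.2 ± 18.0) did not either. Fmod ranked 6 of 9 in loaded Nb3 alloy, 7 in non-loaded Nb3 alloy, 8 in loaded cpTi and 7 in non-loaded cpTi. Its place below Aspn in loaded cpTi rested on replicate 2, where Aspn stood at 27.1 FPKM. In replicates 1 and 3 Aspn lay below Fmod. The summed level of the 9 genes was 1879 ± 110 FPKM with loading and 447 ± 160 FPKM without it beside the Nb3 alloy, and 860 ± 168 FPKM with loading and 540 ± 125 FPKM without it beside cpTi (SD, n = 3 each).

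Shares of that sum are given as descriptions, with no test. Fmod made up 3.28%, 3.66% and 2.11% of the sum in loaded Nb3-alloy replicates 1, 2 and 3, against 0.30%, 0.53% and 0.85% in the non-loaded ones. Bgn made up 29.4%, 29.7% and 31.2%, against 51.1%, 33.9% and 38.7%. So the loaded libraries held more Fmod and less Bgn per unit of proteoglycan RNA, with no overlap in either. This was not particular to these genes. The share of Aspn was also wholly higher, at 0.574% to 0.856% in loaded and 0.204% to 0.453% in non-loaded Nb3 alloy. That of Ogn was wholly lower, at 5.35% to 7.33% in loaded and 7.67% to 8.64% in non-loaded Nb3 alloy. Shares of 1 sum depend on each other. Dcn made up 25.5 ± 4.59% and 20.8 ± 4.29% (SD, n = 3 each), which overlapped.

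Set against its chromosome 13 neighbour Prelp, Fmod stood at 95.9 ± 31.1 FPKM per 100 FPKM of Prelp in loaded Nb3 alloy, 21.6 ± 1.801 in non-loaded Nb3 alloy, 23.9 ± 6.04 in loaded cpTi and 39.2 ± 9.11 in non-loaded cpTi. Loaded Nb3 alloy was the one group in which the 2 genes reached like levels. Lum per 100 FPKM of Dcn did not separate the groups, at 121 ± 34.4 in loaded Nb3 alloy, 116 ± 3.75 in non-loaded Nb3 alloy, 106 ± 15.5 in loaded cpTi and 103 ± 20.9 in non-loaded cpTi.

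**Figure D3:**
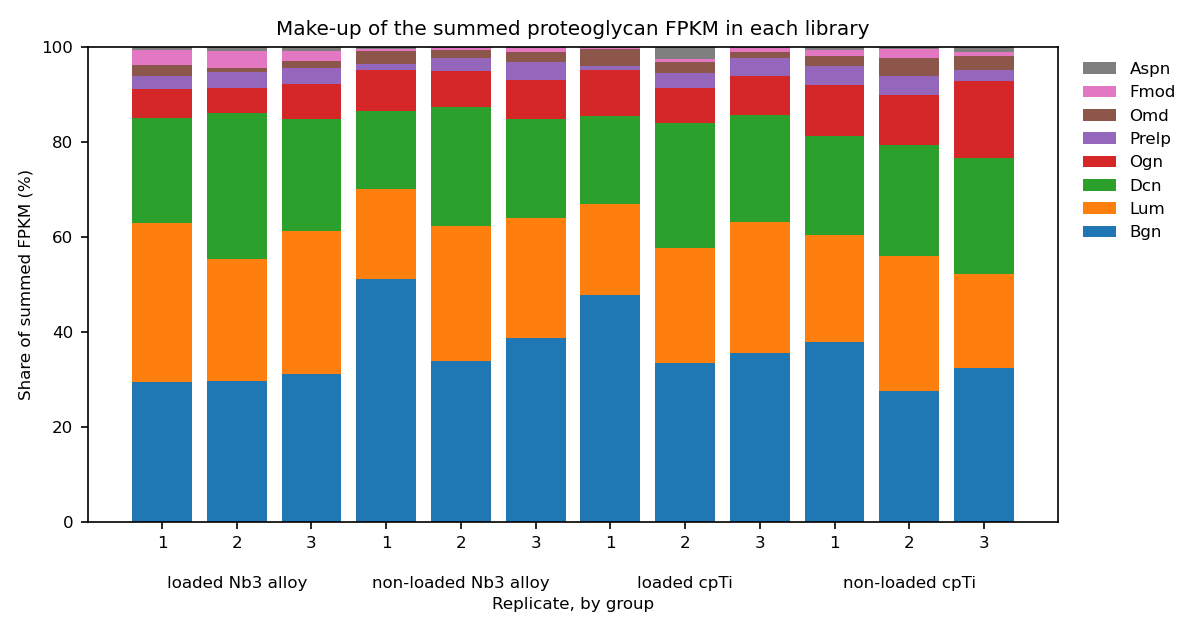
Share of each gene in the summed FPKM of the family in each of the 12 libraries (stacked bars, 0 to 100%), grouped by material and loading. Bgn, Lum and Dcn fill most of every bar, Fmod is widest in loaded Nb3 alloy, and Aspn is widest in loaded cpTi replicate 2 (2.57%).

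Because these proteins coat collagen fibrils, the genes were also set against the fibrillar collagens. The mean log2(FPKM + 1) of Col1a1, Col1a2, Col3a1, Col5a1 and Col5a2 was subtracted in each library. That mean was 10.04 ± 0.27 in loaded Nb3 alloy, 7.87 ± 0.63 in non-loaded Nb3 alloy, 9.22 ± 0.34 in loaded cpTi and 8.08 ± 0.37 in non-loaded cpTi (SD, n = 3 each). In both materials every loaded library had a higher collagen mean than every non-loaded one, so on this scale most genes sit lower in loaded samples. In Nb3 alloy 92.1% of all tested genes were called and 0.295% were called higher. In cpTi 80.4% were called, nearly all lower, and 0.00655% were called higher. The collagens themselves were not called with loading beside cpTi (0 of 7 fibrillar collagen genes by limma, 5 at an unadjusted p under 0.05, median 1.34). The collagen mean is common to all genes of a library, so its error is shared by all these tests and their p-values are too small.

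Relative to the collagens, Fmod alone of the 8 was called with loading beside the Nb3 alloy. Its log2 distance from the collagen mean was -4.23 ± 0.75 in loaded and -6.19 ± 0.78 in non-loaded samples (SD, n = 3 each), a difference of 1.96 (SE 0.43, limma adjusted p = 2.39e-05) called in 22 of 22 alternatives. Lum (0.26, limma adjusted p = 0.630), Dcn (0.25, adjusted p = 0.646), Prelp (0.27, adjusted p = 0.562) and Aspn (0.45, adjusted p = 0.562) had small positive differences. Bgn (-0.48, limma adjusted p = 0.383), Ogn (-0.46, adjusted p = 0.338) and Omd (-0.78, adjusted p = 0.0783) had negative ones. For these 7 genes no departure from the collagen mean was detectable with 3 libraries a group, and Omd was called without loaded replicate 1 (-1.15).

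Beside cpTi the same scale gave 3 genes lower, among a background of 80.4% lower. Fmod had a distance of -6.76 ± 0.42 in loaded and -5.10 ± 0.30 in non-loaded cpTi, a difference of -1.67 (SE 0.43, limma adjusted p = 0.00735), with no overlap. On this scale the loaded cpTi libraries of Dcn, Lum, Prelp and Ogn also lay wholly below the non-loaded ones. The share of all tested genes without such overlap was not counted, so this is no result about Fmod. The call of Fmod was lost without non-loaded cpTi replicate 1 (-1.63). In that fit the number of all tested genes called lower fell from 12274 to 170. Without loaded cpTi replicate 2 it fell to 441, so calls lost in these fits are no result about single genes. Prelp (-1.06, limma adjusted p = 0.0303) and Ogn (-1.01, adjusted p = 0.0456) were called in 14 of 22 alternatives each, Prelp with values from -1.34 to -0.57 and Ogn from -1.22 to -0.70. The call of Prelp was lost without loaded cpTi replicate 1 (-0.57) or 2 (-1.26) and without non-loaded cpTi replicate 1 (-0.91), and also with a pseudocount of 0.1, quantile normalization, limma-voom and no moderation. That of Ogn was lost without loaded Nb3-alloy replicate 1, non-loaded Nb3-alloy replicate 2 (-1.01 each), loaded cpTi replicate 2 (-0.91) or 3 (-0.92), and non-loaded cpTi replicate 1 (-1.10) or 3 (-0.70), and with quantile normalization. With a replicate block, Prelp (limma adjusted p = 0.0549) and Ogn (adjusted p = 0.0881) were not called and Fmod was. Aspn (-1.003), not called, was called lower without loaded cpTi replicate 2 (-2.06), with no filter, and without any of loaded Nb3-alloy replicates 1, 2 and 3 or non-loaded Nb3-alloy replicate 3. Omd (-0.82), not called, was called lower without loaded cpTi replicate 1 (-1.23) and in a fit of these groups alone. Fmod thus lay nearer to the collagen mean with loading beside the Nb3 alloy. Beside cpTi it lay farther from that mean, as most tested genes did (median -1.17 over all tested genes). The call of Fmod there is therefore no result about Fmod alone.

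**Figure D4:**
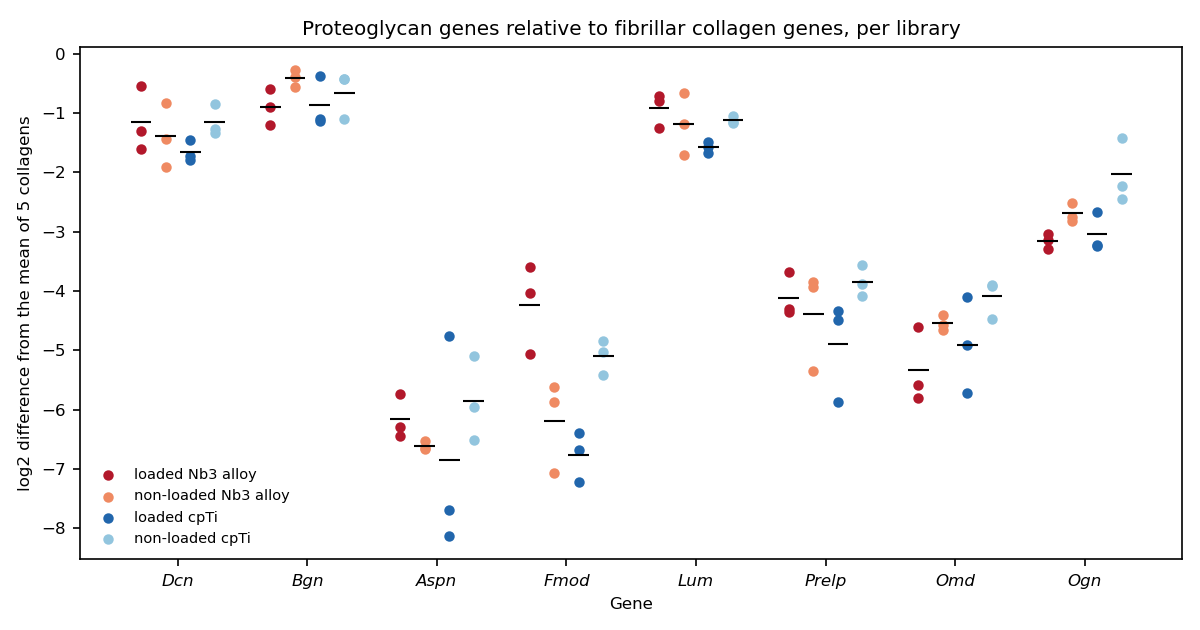
Log2 distance of each tested gene from the mean of 5 fibrillar collagen genes in each library (points; y axis), with lines at group means, in the same left-to-right order as the legend. Fmod is highest in loaded Nb3 alloy (-4.23 ± 0.75) and lowest in loaded cpTi (-6.76 ± 0.42), while Dcn and Lum lie close together in all 4 groups.

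Other genes of proteoglycan biology were taken from lists chosen with earlier results of these data known, and those said to have risen or fallen were called by limma. The counts stand against 45.8% of all tested genes called with loading beside Nb3 alloy and 20.7% called higher. Beside Nb3 alloy the fibrillar collagens had 6 of 7 tested genes higher, with Col3a1 at 3.94 and Col5a1 at 1.72 (log2 differences), and a list median of 1.79 against -0.02 for all tested genes. Col3a1, the type III collagen gene, averaged 1235 ± 478 FPKM with loading and 80.6 ± 35.6 FPKM without it (SD, n = 3 each). It was the collagen whose difference came nearest to that of Fmod. Of 10 further leucine-rich proteoglycan genes, 9 were in the table and 4 were tested. All 4 rose: Podnl1 (2.33), Chadl (1.33), Ecm2 (1.16) and Tsku (0.81). Ecm2, which lies beyond Aspn on chromosome 17, stood at 5.55 ± 0.861 and 1.95 ± 0.632 FPKM in loaded and non-loaded Nb3 alloy. Between Aspn and Ecm2 lies the protein-coding gene AC120310.1, which was not called. It averaged 9.35 ± 3.57 and 9.08 ± 3.98 FPKM in these groups (log2 difference 0.06, limma adjusted p = 0.881).

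Among other proteoglycan core proteins 7 rose and 2 fell of 14 tested. The syndecans Sdc1 (2.91), Sdc4 (1.92) and Sdc2 (1.56), which sit in the cell membrane, rose, and Srgn, the granule proteoglycan of blood cells, fell (-3.58). Of 24 genes for the sugar linker and for chondroitin or dermatan sulfate, 9 rose and 5 fell, with a median of 0.27. Papss2, which makes the sulfate donor, rose by 1.31, Chpf, a chain-lengthening factor, by 1.74, and the dermatan epimerases Dse and Dsel by 1.04 and 1.14. Of 9 tested genes for keratan sulfate 4 rose and 2 fell, with the sulfotransferase gene Chst2 at 1.17 and the chain-extending gene B3gnt2 at -1.20. Both tyrosine sulfotransferase genes, Tpst1 (0.59) and Tpst2 (0.60), rose. The keratan sulfate list had a median of 0.50.

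Proteases that cut these proteins, with the enhancer Pcolce, had 8 of 10 tested genes higher and a median of 2.22. Mmp2, a gelatinase, rose by 3.44, Htra1, a serine protease, by 2.45, and the membrane protease Mmp14 by 2.05. Pcolce, which speeds the procollagen protease Bmp1, rose by 2.50. Of 13 TGF-beta genes 6 rose, among them the latency proteins Ltbp2 (2.15) and Ltbp4 (1.76) and the ligand Tgfb3 (1.39), with a median of 0.41. Of 11 tested receptor genes 4 rose and 1 fell, with Itgb1 at 0.92 and Igf1r at -1.17, and a median of 0.54. In both of these lists the share of genes called in either direction was near the 45.8% of all tested genes, so their counts are no result about the lists. Beside cpTi, limma called 0 of the 94 tested genes on these 9 lists with loading. At an unadjusted p under 0.05 there were 16 of them, against 1062 of all 15268 genes tested.

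Each member's profile over the 12 libraries was compared with all other tested genes by the root mean square difference of centred log2 values, where smaller means more alike. The loaded Nb3-alloy libraries weigh heavily in this measure. Dcn was nearest to Trpv4, a calcium channel gene (0.208), and Lum to Ppic (0.192) and Trpv4 (0.209). Prelp was nearest to Igsf10 (0.183), Bgn to Olfml2b (0.248) and Fap, a fibroblast surface protease gene (0.261), and Ogn to Phlda1 (0.289). Cpxm1 was among the genes most like Fmod (0.413). Omd was nearest to Sod3 (0.372) and Aspn to Tppp3 (0.657), the farthest of these nearest genes. Among the members themselves, Dcn and Lum, neighbours on chromosome 7, were the most alike (0.251).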

How the data were processed

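RNA-seq of 12 libraries of rat peri-implant bone was analysed. Per the labels' protocols, RNA was isolated with TRIzol, and polyadenylated RNA was made into libraries with a NEBNext Ultra kit. The authors deposited 1 table of FPKM values with gene lengths and positions. The submitters' processing notes list DESeq2 1.20.0, featureCounts 1.5.0-p3, HISAT2 2.0.5, fastp and CASAVA 1.8, with no role or order. The genome build is not given in the sources used here, nor are annotation and strand setting. Multiplied by gene length, the deposited FPKM fell on whole multiples of the worth of 1 read (100% of values within 0.01), which gave the reads printed.

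Of 33801 genes, 15268 had 1 FPKM or more in at least 3 libraries and were tested, and 18533 were not. limma 3.58.1 (R 4.3.3, statmod 1.5.0) was run on log2(FPKM + 1) with 1 mean for each of 4 groups, 8 residual degrees of freedom, and trended, robust empirical Bayes. Log2 differences are on this scale and understate changes of low genes. A second fit subtracted the mean of 5 collagen genes in each library. The pipeline was tested on simulated data. The members and gene lists were chosen with earlier results of these data known. All 9 members are named, with up to 4 called genes of each list by smallest p and tested genes of most alike profile, not all of which are reported here; list members given as marker checks are named too. Alternatives were a pseudocount of 0.1, other filters and scalings, non-robust fits, limma-voom on recovered reads, a fold threshold, a replicate block, leaving out each library, and fits of only the groups compared. Scaling by nuclear reads and a fit with no moderation were chosen after seeing the data. Plots were drawn with matplotlib 3.10.9 and tables made with pandas 2.3.3, scipy 1.17.1 and numpy 2.4.6 under Python 3.11.15. Upstream sequences came from RefSeq (GRCr8). Protein sequences were not used here.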

Additional observations from a re-analysis of the deposited data

Results flagged for a closer look

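For 5 genes the loading effect differed between the implant materials by a test of the difference itself, the interaction of loading and material in limma. The effect in Nb3 alloy minus that in cpTi was 4.66 for Fmod, 2.35 for Prelp, 1.78 for Dcn, 1.74 for Lum and 1.57 for Ogn (log2). By this test 20.2% of all tested genes were called in either direction and 8.42% were called higher. Fmod and Lum held the call in 23 of 23 alternatives, Dcn in 22, Prelp in 20 and Ogn in 10. In Fmod, Prelp, Dcn and Lum every loaded Nb3-alloy library lay above every library of the other 3 groups. In Ogn non-loaded cpTi replicate 3 reached 105 FPKM, above loaded Nb3-alloy replicate 2 at 104 FPKM. The share of all tested genes above all other 3 groups was not counted, so this is no result about these genes. Against single groups, 22.9% of all tested genes lay wholly above non-loaded Nb3 alloy and 21.0% wholly above loaded cpTi. The loaded Nb3-alloy libraries also held the least erythroid marker RNA, with a sum of 5.28 to 17 FPKM against 845 to 1919 FPKM in the other 3 groups, and the part of this in the differences was not tested.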

How the results depend on the processing

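The deviations of same-numbered libraries from their group means correlated at -0.25 to 0.11 over 18 pairs, with 1 above 0.1. Whether same-numbered libraries share an animal or a batch is not given, and these correlations cannot decide it. With a replicate block, limma called 7 members for loading in Nb3 alloy against 8 without it, 4 in the interaction against 5, 4 for material under loading, 0 in the other comparisons on the FPKM scale, and relative to collagens 1 in Nb3 alloy and 1 in cpTi against 3. With the block, fewer of all tested genes were called higher too: 2941 against 3156 for loading in Nb3 alloy and 1055 against 1285 in the interaction. The interaction count of members fell to 2 with no filter and 3 with no moderation, and ran from 3 to 6 with single libraries left out. Over all genes the interaction called 481 of 33801 higher with no filter. It called 991 of 15268 with no moderation and 738 to 1292 with single libraries left out. Relative to collagens, leaving out single libraries gave 1 to 2 members in Nb3 alloy and 0 to 4 in cpTi, and quantile normalization gave 1 in cpTi. On that scale in cpTi, 12274 of all tested genes were called lower in the main fit. The number was 9962 with the block, 9236 with quantile normalization and 170 to 13348 with single libraries left out. These changes in counts are therefore no result about the members alone. Over the log2 differences of the 8 tested members in 7 comparisons and all settings, 1218 values kept their direction and side of the threshold, 53 lost a call, 15 gained one and 18 changed sign.

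All changes of sign were in values not called. Loading in cpTi gave Aspn -0.041 with a pseudocount of 0.1 and -0.019 with limma-voom. With single libraries left out it ran from -1.08 to 0.78 for Aspn, -0.29 to 0.75 for Prelp, -0.066 to 0.73 for Omd and -0.16 to 0.47 for Ogn. The like ranges were -0.0055 to 0.77 for Omd between materials under load and -0.40 to 0.29 for Bgn between materials at rest. Relative to collagens in Nb3 alloy they were -0.060 to 0.53 for Dcn, -0.0051 to 0.52 for Lum and -0.22 to 0.53 for Prelp. The cause was not tested. Read counts were low for Kera, with 3 reads in 1 library and 0 in the others, and for Aspn, with 25 reads in its lowest library.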
